A study of Mus musculus with 9 samples.

Results

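The genes described here are 10 adhesion genes of leukocytes, namely 4 partners of the CD18 family (Itgb2 with Itgal, Itgam and Itgax), 5 other integrin subunits (Itgb1, Itga5, Itgav, Itga4 and Itgb7) and the ligand Icam1. They were taken by gene symbol from the deposited expression table, and all 10 were found among its 26146 genes. All 10 also passed the filter on low values, an FPKM of 1 or more in 3 or more of the 9 libraries, which 11536 genes passed. FPKM is fragments per kilobase of exon, scaled to the library's total of fragments.

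Integrins are receptors made of 1 alpha and 1 beta chain that bind other cells or the matrix. The beta2 chain pairs with alpha chains that include alpha L, alpha M and alpha X. The beta1 chain pairs with many alpha chains including alpha 4 and alpha 5, and the beta7 chain with alpha 4 or alpha E. In macrophages these receptors carry adhesion, migration, phagocytosis of complement-coated particles and binding to endothelium, and Icam1 is the ligand that beta2 integrins hold on to.

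Poly(A) RNA was sequenced from RAW264.7, a macrophage-like line derived from a mouse tumour induced by Abelson leukaemia virus. The 9 libraries fall into 3 groups of 3, labelled Normal, LPS and LPS+Extract. LPS is lipopolysaccharide from bacterial walls, which activates macrophages through TLR4, and the extract is one of Traditional Chinese Medicine. The plant, the doses, the times and whether replicates were separate cultures are not given in the sources used here, so p-values measure only the spread between these libraries. All groups are 1 cell line, and no primary macrophage is among them.

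The labels conflict on the treated groups. In the sample descriptions the column names give ET as LPS alone and M as LPS with extract, and the library names give the reverse. The groups are therefore called ET and M after the table's columns, and the comparison of both with Normal holds under either reading. M against ET is the effect of the extract under the column names and the opposite sign of it under the library names.

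Library totals lay between 55039858 and 76242718 counts. Summed TMM-scaled CPM (counts scaled to the library total) of 12 macrophage markers were 5286 to 5494 (Normal), 5558 to 5854 (ET) and 5426 to 5556 (M), with Mertk at 0 in Normal and ET. Of the other marker lists, summed granulocyte markers (5 of 8 in the table) were 0.0509 to 0.126 CPM (Normal), 28.8 to 35.6 (ET) and 32.0 to 36.4 (M). In ET and M nearly all of it was S100a8. Mpo and S100a9 stood at 0 in Normal, Elane in ET and S100a9 in M. Fibroblast markers (8 of 8) were 0.757 to 1.60, 9.59 to 10.999 and 13.1 to 18.7 CPM in the same order. In ET and M this was mostly Lum. Dcn, Lum and Thy1 were at 0 in Normal and Col1a1 in M. Lymphocyte markers (6 of 10) were 449.7 to 478.9, 52.4 to 55.6 and 61.6 to 64.2 CPM, nearly all of it Ighm. Platelet and erythroid markers (7 of 8) were 0.978 to 1.10, 1.89 to 2.52 and 1.72 to 3.20 CPM with Pf4 at 0 in Normal and ET, and epithelial and endothelial markers (6 of 9) were 0.305 to 0.492, 1.898 to 2.33 and 1.31 to 1.80 CPM with Epcam at 0 in Normal and M. The part of these markers in the changes below was not tested, and in bulk RNA a change in the number of cells of a kind and a change in RNA per cell cannot be told apart.

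In the mean of ET and M against Normal, 9 of the 10 genes rose and 1, Itga4, fell. Of all 11536 tested genes 36.8% were called higher and 36.8% lower in that comparison, a call being a Benjamini-Hochberg adjusted p of at most 0.05 in edgeR's quasi-likelihood test. Itgb7 and Itgax, at most 0.696 and 0.218 FPKM in Normal, passed the filter on low values only through ET and M libraries. Both could thus hardly have been called lower, and they are included in the counts and medians given here. The median log2 change of the 10 genes was 1.76 and that of all tested genes -0.01. The 10 genes were chosen with earlier results of these data known, so their counts and medians are descriptions only. ET and M share the Normal libraries and are given side by side. Against Normal, ET had 9 higher and 1 lower with a median of 1.67, where 35.0% of tested genes were higher and 35.2% lower with a median of -0.02. M had 9 higher and 1 lower with a median of 1.85, where 35.5% of tested genes were higher and 34.5% lower with a median of -0.01. For each of the 10 genes, no Normal library overlapped any ET or M library in FPKM. The share of all tested genes that separate in the same way was not counted, so this does not set the 10 genes apart.

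**Figure D1:**
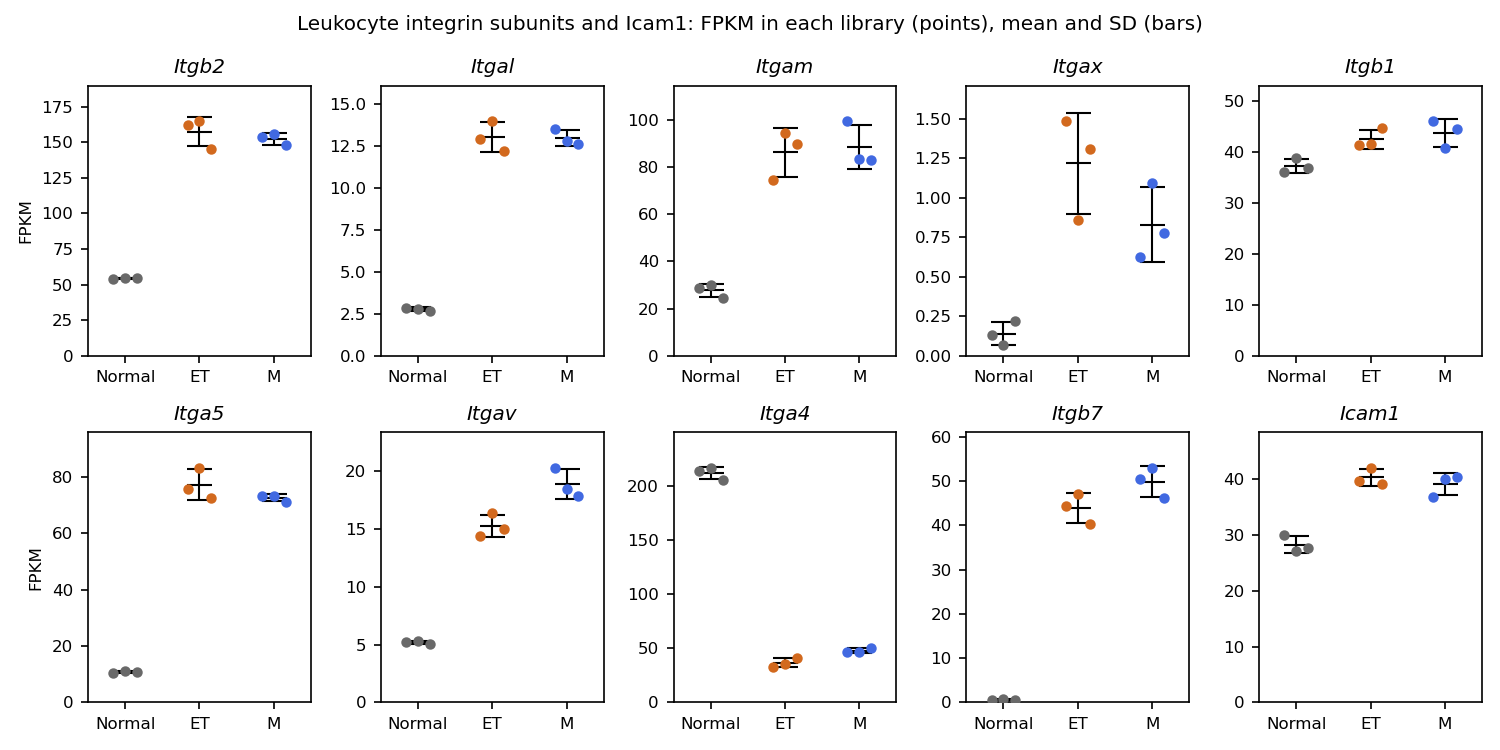
Deposited FPKM of each gene (linear axis from 0, a scale of its own in each panel) in the 3 Normal, 3 ET and 3 M libraries. Points are libraries, and the bars are the mean and SD of 3. Itga4 lies at 205 to 217 FPKM (Normal), 32.7 to 41.3 (ET) and 46.2 to 50.4 (M), and Itgb7 climbs from below 1 to above 40.

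The stretches before the annotated RefSeq starts of Itga4, Itgb7 and Icam1 are shown because Itga4 and Itgb7 encode partner chains that moved furthest down and up, and Icam1 is the ligand. Each is the 250 bases that precede the RefSeq start on GRCm38.p6, printed 5′ to 3′ on the gene's strand. Capitals mark matches on either strand to GGGCGG, a GC box, or to GGAAATTCC, a form of the kappa B element.
Itga4, chr2:79255176-79255425, plus strand: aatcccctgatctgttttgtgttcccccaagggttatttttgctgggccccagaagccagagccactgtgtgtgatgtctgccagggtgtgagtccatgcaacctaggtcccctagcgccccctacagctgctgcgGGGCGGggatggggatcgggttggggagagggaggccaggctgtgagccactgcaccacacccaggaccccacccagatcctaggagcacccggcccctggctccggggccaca
Itgb7, chr15:102231936-102232185, minus strand: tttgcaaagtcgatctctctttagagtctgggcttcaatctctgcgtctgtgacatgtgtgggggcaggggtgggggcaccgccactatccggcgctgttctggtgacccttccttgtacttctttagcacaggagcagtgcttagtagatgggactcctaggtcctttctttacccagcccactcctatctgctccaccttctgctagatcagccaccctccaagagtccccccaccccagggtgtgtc
Icam1, chr9:21015690-21015939, plus strand: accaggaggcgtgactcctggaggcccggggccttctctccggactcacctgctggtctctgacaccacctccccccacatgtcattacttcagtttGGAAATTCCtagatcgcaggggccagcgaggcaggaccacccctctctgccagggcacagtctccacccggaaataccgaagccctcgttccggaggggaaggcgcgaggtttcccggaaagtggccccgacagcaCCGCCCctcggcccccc
Counted downstream from the RefSeq start used here, the expression table's start lay at 45 bases for Icam1, -9 for Itgb7 and 0 for Itga4. The last bases of the Itgb7 window thus lie inside the gene as that table places it. Of the 10 genes, 8 had an entry in the RefSeq table, and Itgal and Itgb2 did not match. Itga4 held GGGCGG at 114 to 109 bases before the start and Icam1 its reverse complement at 17 to 12 bases before it, a word present in 32.7% of all 32851 windows of that length. The windows of Itgam, Itgb1 and Itga5 held it too, that of Itga5 at 2 places. Icam1 held GGAAATTCC at 153 to 145 bases before the start, and 0.286% of all windows held that word. GGAAATTCC was added to the search after the sequences had been read, and these are matches of letters only. The full 10-letter kappa B consensus, in 9.55% of windows, was not among the letters of any of the 8 windows, nor was TATAAA, the TATA box word in 12.4% of windows, and Itgb7 had no match to any word searched. The word TGANTCA, an AP-1 element found in 6.75% of windows, matched in Itgax alone, as TGAGTCA at 56 to 50 bases before the start. GAGGAA, a purine-rich core bound by ETS factors such as PU.1 and present in 23.3% of windows, matched in Itgam, Itgb1, Itga5 and Itgav.

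Itgb2 (chr10:77530252-77565686), the beta2 chain CD18 without which no CD18 receptor reaches the cell surface, stood at 53.8, 54.8 and 54.8 FPKM in Normal, 162, 165 and 146 in ET, and 154, 156 and 148 in M. The treated libraries lay near 3 times Normal and ET and M overlapped. The log2 change in the mean of both was 1.59 (SE 0.0415, adjusted p = 2.4e-12, edgeR), a 3.01-fold rise, and it was 1.61 in ET and 1.57 in M.

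Itgal (chr7:127296260-127335138), the alpha L chain of LFA-1 and a receptor for Icam1, was lower in level at 2.88, 2.79 and 2.66 FPKM in Normal. It reached 12.9, 14.0 and 12.2 FPKM in ET and 13.5, 12.8 and 12.6 in M. ET and M covered nearly the same range. The rise was 4.94-fold (log2 2.31, SE 0.0550, adjusted p = 9.9e-13, edgeR).

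Itgam (chr7:128062640-128118491), the alpha M chain CD11b of the complement receptor Mac-1, had 28.7, 29.9 and 24.5 FPKM in Normal, 74.5, 94.5 and 89.6 in ET, and 99.3, 83.3 and 83.0 in M. ET replicate 1 was the lowest treated library and M replicate 1 the highest, and the groups overlapped each other but not Normal. The fitted rise was 3.34-fold (log2 1.74, SE 0.0915, adjusted p = 2.3e-09, edgeR).

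A second gene, Gm49368 (chr7:128062683-128128160), lies over Itgam on the same strand. The annotation of GENCODE M21 gives them 3450 exon bases in common, 68.7% of those of Itgam and 71.8% of those of Gm49368, so the count of either depends on how shared fragments were assigned. Gm49368 had 115 CPM in ET replicate 1 but 18.0 and 12.1 in the other ET libraries, and 8.88 CPM in M replicate 1 but 96.2 and 67.4 in the other M libraries. It was high where Itgam was low within each treated group. Summed, the pair had 160, 160 and 155 CPM in Normal, 525, 533 and 505 in ET, and 560, 556 and 525 in M. The coefficient of variation of Itgam alone was 10.5% in Normal, 11.8% in ET and 10.9% in M, and that of the sum was 1.97%, 2.83% and 3.54%. The sum is a view chosen after the data had been seen.

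**Figure D2:**
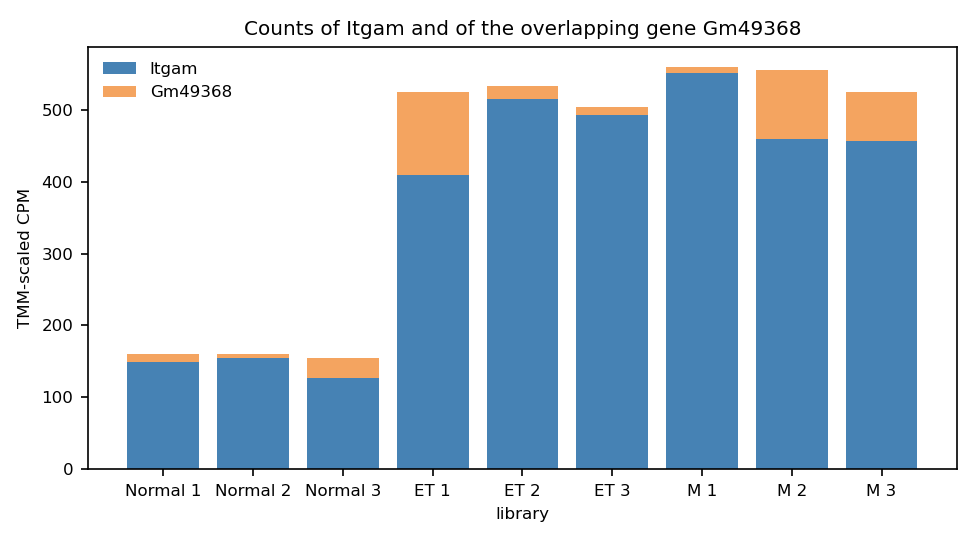
TMM-scaled CPM (linear axis from 0) of Itgam, with Gm49368 stacked on it, in each of the 9 libraries. The stacked heights are 155 to 160 (Normal), 505 to 533 (ET) and 525 to 560 (M), while the Gm49368 share differs widely between libraries of a group.

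Itgax (chr7:128129547-128150657), the alpha X chain CD11c that marks dendritic cells and some macrophages, begins 11.1 kb past the end of Itgam. It was the lowest of the 10 genes in FPKM in each group. The Normal libraries held 43, 28 and 65 counts. Treated counts were 482, 246 and 410 in ET and 196, 325 and 238 in M. In FPKM this was 0.134, 0.0699 and 0.218 in Normal, 1.48, 0.861 and 1.31 in ET, and 0.624, 1.09 and 0.774 in M. All treated libraries were above Normal, with the widest spread of the 10 genes, a coefficient of variation of 52.9% in Normal, 26.3% in ET and 28.4% in M. The fitted rise was 7.62-fold (log2 2.93, SE 0.336, adjusted p = 4.7e-06, edgeR).

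Per length, Itgam made up 90.4% ± 0.899 (SD, n = 3) of the FPKM of the 3 Itgb2 partners described here in Normal. It made up 85.7% ± 1.66 in ET and 86.5% ± 0.948 in M. Itgal went from 9.10% ± 0.606 to 13.0% ± 1.36 and 12.7% ± 0.687, and Itgax stayed a small part at 0.477% ± 0.295, 1.24% ± 0.441 and 0.826% ± 0.288. The summed partners rose with their shared chain, from 0.562 ± 0.0549 of Itgb2 in FPKM in Normal to 0.640 ± 0.0824 (ET) and 0.671 ± 0.0597 (M). The Normal libraries (0.499 to 0.598) overlapped those of ET (0.549 to 0.708) and lay below those of M (0.623 to 0.738). These shares were not tested. They describe RNA as counted, and that of Itgam leaves out what was counted as Gm49368.

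Itgb1 (chr8:128685654-128733200), the beta1 chain shared by fibronectin and collagen receptors, moved least of the 10. Its FPKM was 36.0, 38.8 and 36.9 in Normal, 41.3, 41.6 and 44.7 in ET, and 46.1, 40.8 and 44.6 in M. The rise was 1.23-fold (log2 0.29, SE 0.0452, adjusted p = 6.8e-05, edgeR), small beside the other rises.

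Itga5 (chr15:103344286-103366763), the alpha 5 chain that with beta1 forms the fibronectin receptor, rose 7.32-fold (log2 2.87, SE 0.0469, adjusted p = 3.4e-14, edgeR). Normal libraries had 10.4, 11.1 and 10.96 FPKM, ET libraries 75.6, 83.2 and 72.6, and M libraries 73.1, 73.3 and 71.1. The M libraries lay within or just below the ET range. As a ratio of FPKM, Itga5 went from 0.290 ± 0.00614 of Itgb1 in Normal to 1.82 ± 0.187 (ET) and 1.66 ± 0.120 (M), as mean ± SD of 3 libraries.

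Itgav (chr2:83724397-83806916), the alpha v chain that binds vitronectin, osteopontin and latent TGF-beta with several beta chains, had 5.26, 5.28 and 5.08 FPKM in Normal. It had 14.4, 16.4 and 15.1 in ET and 20.3, 18.5 and 17.9 in M. The M libraries all exceeded the ET libraries. Against Normal the log2 rise was 1.63 in ET (SE 0.0574, adjusted p = 5.7e-11) and 1.95 in M (SE 0.0577, adjusted p = 9.9e-12, edgeR).

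Itga4 (chr2:79255426-79333123), the alpha 4 chain that binds VCAM-1 and MAdCAM-1, was the only one to fall. In Normal its FPKM was 213, 217 and 205, rank 197 of 11536 genes tested. It dropped to 32.7, 35.8 and 41.3 in ET and 46.2, 46.4 and 50.4 in M, ranks 1419 and 1048. Itga4 was 4.79-fold lower in the mean of both (log2 -2.26, SE 0.0558, adjusted p = 1.4e-12, edgeR), 5.49-fold lower in ET and 4.18-fold lower in M. By the mean of both it held rank 77 among falls of the 11536 tested genes. ET replicate 3 was the highest ET library and M replicate 3 the highest M library, and no ET library reached any M library.

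Itgb7 (chr15:102215995-102231944), the beta7 chain that pairs with alpha 4 to bind MAdCAM-1 on gut vessels, climbed from a low level. Counts were 111, 160 and 83 in Normal, 8306, 7669 and 7235 in ET, and 9068, 9069 and 8088 in M. FPKM was 0.599, 0.696 and 0.485, then 44.5, 47.1 and 40.2, then 50.4, 53.0 and 46.2. The rise was 81.2-fold (log2 6.34, SE 0.102, adjusted p = 3.2e-14, edgeR), rank 154 among rises of the 11536 tested genes. Limma on log2(FPKM + 1), a scale that understates changes of low genes, gave a log2 rise of 4.91. It passed in level from rank 11092 (Normal) to 1157 (ET) and 1012 (M). Itgb7 ends 1.11 Mb from Itga5 on chromosome 15, and Itga4 lies 4.39 Mb from Itgav on chromosome 2.

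The beta chains that Itga4 can pair with rose as Itga4 fell. As a ratio of FPKM, Itga4 over Itgb1 plus Itgb7 was 5.60 ± 0.193 in Normal, 0.424 ± 0.0555 in ET and 0.509 ± 0.0407 in M. Counted per kilobase of the longest coding transcript it was 7.49, 0.577 and 0.694. The length implied by the FPKM of Itga4 lies near its union of exons, which is 1.43 times its longest coding transcript. Itgb7 over Itgb1 went from 0.0159 ± 0.00247 to 1.04 ± 0.121 and 1.14 ± 0.139. Of the FPKM of Itgb2, Itgb1 and Itgb7, Itgb7 took 0.642% ± 0.107 (Normal), 18.0% ± 0.568 (ET) and 20.2% ± 0.940 (M). Of the FPKM of Itga4, Itga5 and Itgav, Itga4 took 93.0% ± 0.198, 28.4% ± 3.17 and 34.3% ± 1.67, and Itga5 took 4.75% ± 0.200, 59.8% ± 3.02 and 52.1% ± 1.05. Itgav went from 2.29% ± 0.0162 to 11.8% ± 0.217 and 13.6% ± 0.885. These shares were not tested. Summed over all 6 alpha and 3 beta chains, alpha over beta FPKM went from 2.80 ± 0.0921 to 0.942 ± 0.0790 and 0.980 ± 0.0352. Without Itga4 it went from 0.505 ± 0.0299 to 0.791 ± 0.0599 and 0.787 ± 0.0361.

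**Figure D3:**
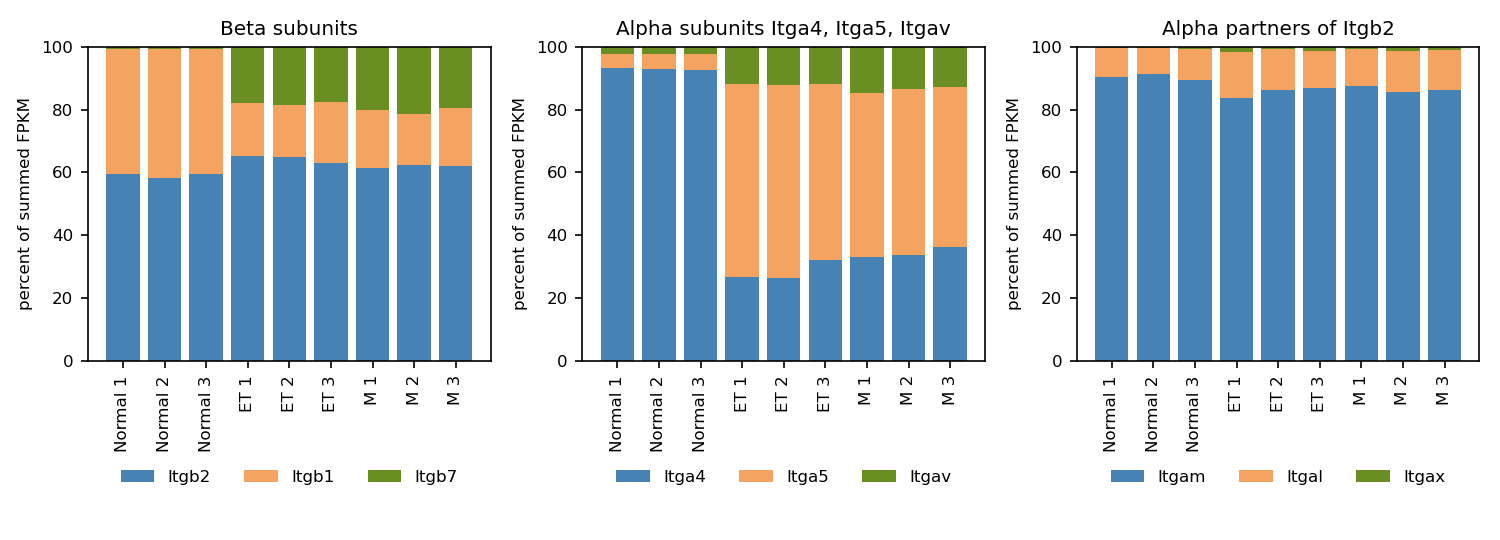
Percent of summed FPKM (0 to 100) taken by each chain in each library, for the beta chains (left) and for Itga4, Itga5 and Itgav (middle). The right panel shows Itgam, Itgal and Itgax, the alpha partners of Itgb2 among the genes described. Itga4 fills 93.0% of the middle bars in Normal on average and 28.4% in ET, and Itgb7 is 0.642% of the left bars in Normal and 18.0% in ET.

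Icam1 (chr9:21015985-21028817), the endothelial and leukocyte ligand for LFA-1 and Mac-1, rose little. FPKM was 30.0, 27.1 and 27.7 in Normal, 39.8, 42.1 and 39.2 in ET, and 36.9, 40.1 and 40.5 in M. The rise was 1.49-fold (log2 0.57, SE 0.0442, adjusted p = 1.0e-07, edgeR), and it ranked 2066 of 11536 among rises. The length implied by its FPKM lies near its union of exons, which is 1.72 times its longest coding transcript.

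The order of the 10 genes by mean FPKM differed between groups. In Normal it was Itga4, then Itgb2, Itgb1, Icam1 and Itgam, then Itga5, Itgav and Itgal, with Itgb7 and Itgax last. Icam1 and Itgam did not differ beyond their spread there, at 27.1 to 30.0 and 24.5 to 29.9 FPKM. In ET the order was Itgb2, Itgam, Itga5, Itgb7, Itgb1, Icam1, Itga4, Itgav, Itgal and Itgax, and the libraries of Itgam and Itga5 overlapped, as did those of neighbours from Itgb7 to Itga4. In M the order was Itgb2, Itgam, Itga5, Itgb7, Itga4, Itgb1, Icam1, Itgav, Itgal and Itgax, and the libraries of Itgb7 and Itga4 overlapped. Scaled to the longest coding transcript, CPM per kilobase put Icam1 above Itgb1 in each group, at 50.4 against 41.3 in Normal, 75.8 against 49.7 in ET and 74.1 against 51.6 in M. On that scale Itga4 also stood above Itgb1 and Itgb7 in ET, at 57.2 against 49.7 and 49.5, and Itga4 and Icam1 stood above Itgb7 in M, at 74.998 and 74.1 against 56.6. The order of these genes therefore depends on the length used.

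**Figure D4:**
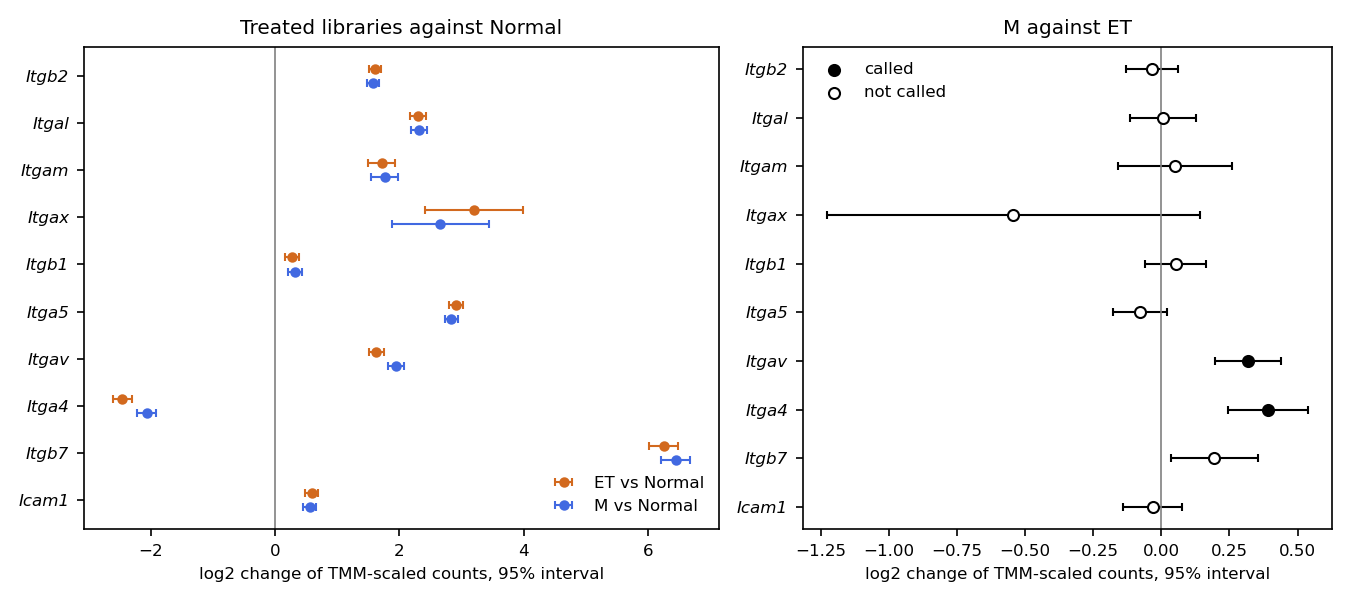
Log2 change of TMM-scaled counts with 95% intervals from the edgeR fit, of ET and of M against Normal (left) and of M against ET (right; filled points are called). On the left Itga4 alone is below 0 and Itgb7 reaches 6.25 in ET and 6.44 in M, and on the right Itga4 and Itgav are called, at 0.39 and 0.32.

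Between M and ET, 2 of the 10 genes were called, Itga4 and Itgav, both higher in M, where 4.97% of tested genes were higher and 4.12% lower. The median log2 difference was 0.03 over the 10 genes and 0.00 over all tested genes. Itga4 was 1.31-fold higher in M than in ET (log2 0.39, 95% interval 0.24 to 0.54, adjusted p = 0.0037, edgeR) and Itgav was higher as well (log2 0.32, 95% interval 0.20 to 0.44, adjusted p = 0.0041). Each was higher in all 3 M libraries than in any ET library. The share of all tested genes that separate M from ET in this way was not counted, so this does not set Itga4 and Itgav apart. For Itga4 this is a smaller distance from Normal in M than in ET, and for Itgav a larger one. Read by the library names instead of the column names, both would be lower with the extract.

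The other 8 genes were not called between M and ET. Itgb7 had a log2 difference of 0.19 (0.04 to 0.35, adjusted p = 0.117), which misses the threshold after adjustment. Itgax had the widest interval, -1.23 to 0.14 about -0.54 (adjusted p = 0.31). Intervals for Itgb2 (-0.13 to 0.06), Itgal (-0.11 to 0.13), Itgb1 (-0.06 to 0.17), Itga5 (-0.18 to 0.02) and Icam1 (-0.14 to 0.08) were narrower. Itgam lay at 0.05 (-0.16 to 0.26, adjusted p = 0.793), and summed with Gm49368 at 0.07 (adjusted p = 0.26). A missed threshold does not show that the groups are alike.

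By distance of centred log2(CPM + 0.5) over the 9 libraries, each gene's 2 nearest genes were named. Itgb2 lay nearest Sbno2 (distance 0.0511) and Slc2a1, the glucose transporter GLUT1. Itgal lay nearest Zbtb32 (0.0539) and Ehd2, Itgam nearest Cdkl2 (0.113) and Trp53inp2, and Itgax nearest Fzd5 (0.202) and Zc3h12d. Itga5 lay nearest Cpd (0.0565) and Slc7a11, the cystine transporter subunit. Itgav lay nearest H2-T22 (0.0771) and Smox, Itgb1 nearest Cep120 (0.0325) and Heatr3, and Icam1 nearest Bag3 (0.0314) and Chsy1. Itga4, the falling one, lay nearest Chst1 (0.170) and Deptor. Itgb7 lay nearest S100a8 (0.0987) and Cd5. The added 0.5 compresses low levels, so genes with near-zero Normal counts come close to Itgb7 although their fitted changes differ: S100a8 read 0 CPM in 2 of 3 Normal libraries and 28.6 to 35.6 CPM in ET.

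The lists of related genes that follow were also chosen with earlier results of these data known, so their counts and medians are descriptions only. Other integrin chains were few. Of 18 listed, 15 were in the table and 2 were tested, Itga7 and Itgb5. The laminin-binding chain Itga7 rose 3.76-fold (log2 1.91, SE 0.0965, adjusted p = 1.5e-09), from 0.592 to 0.683 FPKM (Normal) to 2.30 to 2.76 (ET) and 1.86 to 2.13 (M). It passed the filter only through treated libraries, so it could hardly have been called lower. Itgb5, which pairs with alpha v, was called higher in ET against Normal (log2 0.17, adjusted p = 0.018) but not in M or in the mean of both, and was lower in M than in ET (log2 -0.25, adjusted p = 0.017, edgeR), at 13.4 to 14.6 against 15.8 to 17.4 FPKM. Itgb3, another of the several partners of alpha v, was at 0 FPKM in Normal and 0.0619 to 0.133 in ET, and Itgae, the other alpha partner of Itgb7, had at most 0.130 FPKM in Normal and 0.0520 to 0.114 in ET.

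Among ligands and counter-receptors, 9 of 22 listed were tested, and 6 rose, 1 fell and 2 were not called, with a median log2 of 0.67, where 36.8% of all tested genes were higher and 36.8% lower. Spp1, osteopontin, a ligand of alpha v and alpha 4 integrins, rose 73.1-fold (log2 6.19, SE 0.0556, adjusted p = 9.1e-16), from 50.2 to 54.0 FPKM to 3618 to 4070 in ET and 3261 to 3510 in M. Plaur, the urokinase receptor that binds integrins, rose 15.5-fold (log2 3.95). Jam2, a junctional molecule, fell by 1.98 on the log2 scale. Vcam1, the endothelial ligand of alpha 4, was at 0 in Normal and at most 0.0212 FPKM elsewhere. In M against ET, where 4.97% of all tested genes were higher and 4.12% lower, Jam2 and C3 were higher and Icam2 lower. C3 had a log2 difference of 0.53 (adjusted p = 0.00724) and Icam2 one of -0.52 (adjusted p = 0.047, edgeR).

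Of 25 listed genes for integrin activation and tail binding, 20 were tested, with 13 higher, 6 lower and 1 not called and a median log2 of 0.36, where 36.8% of all tested genes were higher and 36.8% lower. Tln1, talin, which binds beta tails, had 96.4 to 107 FPKM (Normal), 111 to 119 (ET) and 102 to 106 (M). In FPKM M thus lay within the Normal range, yet on TMM-scaled counts Tln1 was called higher in ET and in M against Normal. Fyb, an adaptor of inside-out signalling, rose 5.91-fold. Rap1gap, which switches Rap1 off, had at most 0.0258 FPKM in Normal, against 1.17 to 1.39 (ET) and 0.691 to 0.898 (M). It passed the filter only through ET libraries, so it could hardly have been called lower than in Normal. In M against ET, beside 4.12% of all tested genes, 2 were lower, Sipa1 and Dok1, an adaptor that binds beta tails (log2 -0.24, adjusted p = 0.0215, edgeR).

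Of 27 listed adhesion and signalling genes, 24 were tested, with 16 higher and 8 lower in edgeR's fit and a median log2 of 0.46, where 36.8% of all tested genes were higher and 36.8% lower. Zyx, zyxin of focal adhesions, rose 3.88-fold. Lims2 and Bcar1, a focal adhesion adaptor and a docking protein, had at most 0.0213 and 0.0698 FPKM in Normal and 2.66 to 3.10 and 1.30 to 1.40 in ET. Both were called higher in M against Normal as well. They passed the filter only through treated libraries, so they could hardly have been called lower. In M against ET, Zyx was higher and Parvb, Actn1, Ptk2b and Lyn were lower, beside 4.97% and 4.12% of all tested genes. Actn1, alpha-actinin, was lower in M than in ET (log2 -0.33, adjusted p = 0.0033), as was Ptk2b, the kinase PYK2 (log2 -0.31, adjusted p = 0.0020).

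In the list of selectins, selectin ligands and other receptors, 10 of 13 were tested, with 8 higher, 1 lower and 1 not called and a median log2 of 1.33, where 36.8% of all tested genes were higher and 36.8% lower. Adam8, a metalloprotease, rose 10.6-fold, the hyaluronan receptor Cd44 5.50-fold and the tetraspanin Cd63 4.10-fold. In M against ET 1 was higher and 1 lower, beside 4.97% and 4.12% of all tested genes. Selplg, PSGL-1, was lower in M than in ET (log2 -0.35, adjusted p = 0.0127) and Adam17 higher (log2 0.15, adjusted p = 0.0297, edgeR).

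**Figure D5:**
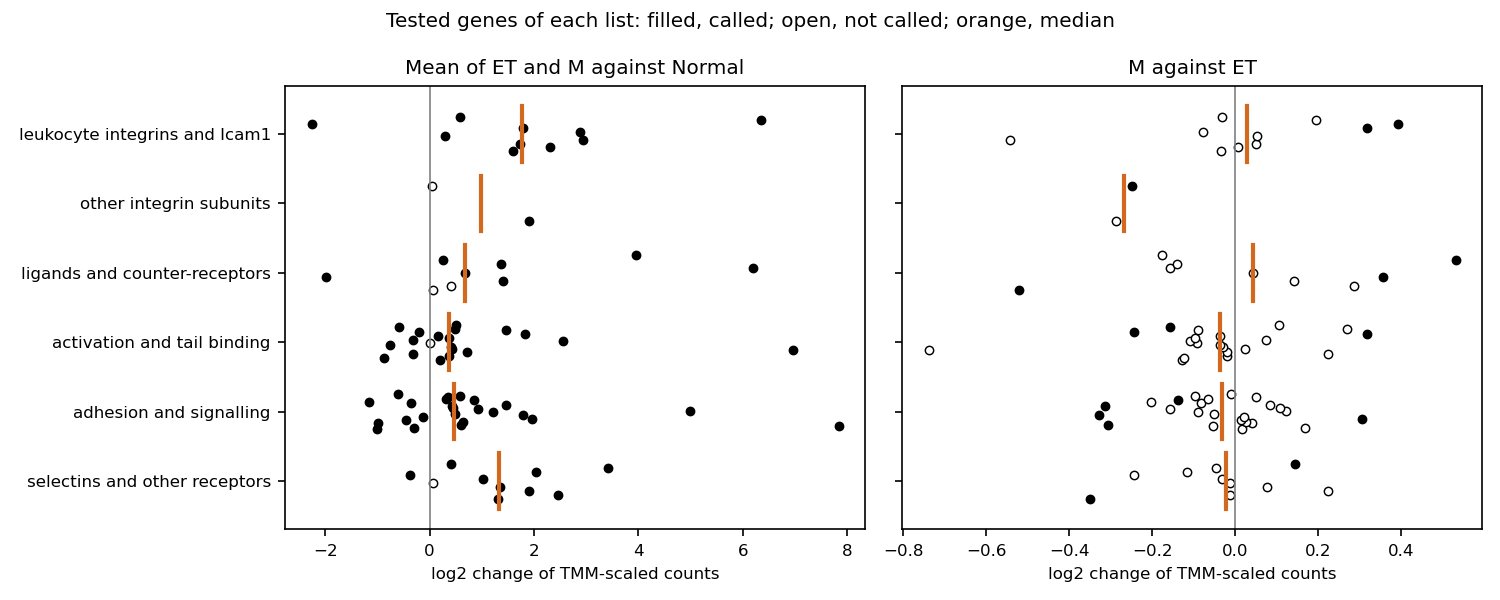
Log2 change of each tested gene of the 10 leukocyte integrin genes with Icam1 and of 5 related lists, for the mean of ET and M against Normal (left) and M against ET (right). Filled points are called, open points are not, and orange bars are list medians, which are 1.76 for the 10 genes on the left and 0.03 on the right.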

How the data were processed

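The RAW264.7 libraries, 9 in 3 groups of 3, were made from poly(A) RNA. The deposited counts are whole fragments per gene, and the deposited FPKM is scaled by gene length and library total, per the file headers. Per the submitters' processing notes the authors used cutadapt 1.9, HISAT2 2.2.1, StringTie 2.1.6, DESeq2 and edgeR. Counting tool, strand setting and genome build are not given in the sources used here, though 22821 of 26146 genes have the start and end of GENCODE M21. FPKM implies lengths near the union of exons. The library kit marks strand. Antisense genes overlapping members had at most 130 counts. Library totals and the precision they give are in the results, and a count of 0 allows up to 3 counts, or 0.0378 to 0.0555 CPM, for counting error only.

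Counts of the 11536 genes passing the filter were fitted with edgeR 4.0.16 (R 4.3.3), TMM factors, 1 fit of 3 groups and Benjamini-Hochberg adjustment. Limma 3.58.1 and DESeq2 1.42.0 served as alternatives, and scripts were tested on simulated data. All members were named, with the 3 largest calls of each list against Normal, the 2 largest in M against ET, and the 2 nearest genes of each member. One named item is not reported here. Vcam1, Itgb3, Itgae, Tln1, Sele, Sipa1, Parvb, Lyn and the 3 macrophage markers with values were named afterwards. The members and lists were chosen with earlier results of these data known.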

Additional observations from a re-analysis of the deposited data

How the results depend on the processing

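Against Normal, all 10 members kept their direction and call in all 18 alternatives for the mean of ET and M and all 19 for ET and for M. Alternatives were other scalings, filters, DESeq2, limma on FPKM, leaving out each library, the replicate block, and Itgam summed with Gm49368, which was chosen after seeing the data. In M against ET, Itga4 ranged from 0.31 to 0.48 and Itgav from 0.26 to 0.37, called in all 19 alternatives with adjusted p up to 0.0225 and 0.0267. Itgal, not called, turned from 0.01 to -0.0022 under RLE factors, -0.0081 with total counts, -0.0022 under DESeq2, -0.0036 and -0.0037 under limma with a pseudocount of 1 and 0.1, and to between -0.0439 and 0.0563 over all alternatives, where the largest reversal left out ET replicate 3. Leaving out ET replicate 1 gave Itgal -0.0086 and Itgam -0.0527, and leaving out M replicate 1 gave Itgal -0.0282, Itgam -0.0433 and Icam1 0.0064. Over the libraries left out in turn, Itgam ranged from -0.0527 to 0.117 and Icam1 from -0.0584 to 0.0064. None was called. With the replicate block, Itgb7 in M against ET was called (log2 0.19, adjusted p = 0.0249), which made 3 members higher in place of 2. Same-numbered libraries correlated at -0.0929 to 0.0551 in 9 pairs and others at -0.105 to 0.111 in 18. The ranges overlap, so pairing by number was not seen, but 3 libraries a group cannot exclude it. Over all genes, M against ET had 573 higher and 475 lower. DESeq2 gave 895 and 787. Leaving out ET replicate 3 gave 1121 and 707, leaving out ET replicate 2 gave 292 and 244, leaving out ET replicate 1, M replicate 1, M replicate 2 or M replicate 3 also lowered both, and limma with a pseudocount of 0.1 gave 339 and 421. The ratios of chains per kilobase of the longest coding transcript are in the results. Itgax rests on few counts: its log2 rise over alternatives was 0.81 to 3.39, lowest with limma at a pseudocount of 1, which compresses low values. That of Itgb7, also low in Normal, was 4.91 to 6.49, lowest in the same fit.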

Other observations

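Of 10 macrophage markers tested, 3 rose, 5 fell and 2 were not called in the mean of ET and M against Normal. Of all tested genes 36.8% were higher and 36.8% lower there, so these counts are near the background. In M against ET, 4 of these 10 markers were called lower and 0 higher, where 4.12% of tested genes were lower and 4.97% higher. Cd14, a receptor that carries LPS to TLR4, rose 5.18-fold, and Adgre1, the F4/80 antigen, rose 3.93-fold. Cd33, a sialic acid receptor, was 5.43-fold lower. Sele, endothelial selectin, was at 0 FPKM in Normal and 0.317 to 0.465 in ET.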
